A study of Mus musculus with 12 samples.

Results

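Ribosomal protein (RP) promoters were followed through 12 ATAC-seq peak lists as a gauge of how completely each list holds the open promoters that every cell needs. ATAC-seq marks accessible chromatin by where a transposase cuts it. Members were the protein-coding genes of GENCODE M21 named Rpl or Rps with a number and at most 1 further letter, together with Rplp0, Rplp1, Rplp2 and Rpsa. This rule gave 80 of 21938 protein-coding genes, 49 of the large ribosomal subunit and 31 of the small, and it used no measured value. A promoter was counted as listed in a library if the summit of a peak lay within 3000 bp of any annotated start of the gene in mm10. The cells were primary fibroblasts of lower abdominal muscle (hernia-associated fibroblasts, HAFs) from Aromhum mice, a strain with the human aromatase gene, whose enzyme turns androgen into estrogen. All 4 groups, controls included, had this genotype and were kept without serum. Vehicle libraries received ethanol and DMSO, E2 libraries received 10 nM estradiol for 1 hour, fulvestrant libraries received 100 nM of this estrogen receptor antagonist, and E2 plus fulvestrant libraries received both, with fulvestrant or DMSO given 3 hours ahead. There were 3 libraries per treatment, numbered 1 to 3 in the labels. Nothing in the labels says that the numbered libraries came from separate mice or cultures, so p-values measure only the spread between these libraries.

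Ribosomal proteins wrap the ribosomal RNAs into the subunits that make all cellular protein. Their genes are among the most highly transcribed of any growing cell, and their short promoters sit in open, nucleosome-poor chromatin at CpG islands. Many begin transcription within a run of pyrimidines, the 5′ terminal oligopyrimidine tract through which growth signals set their translation. Binding sites of ETS factors, SP1 and YY1 recur in them. A few family members are paralogs used mainly in muscle or testis and are not needed by every cell.

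To set members listed in 6 or more libraries beside seldom listed ones, 90 bases around the RefSeq start of 9 members are printed. They cover 80 bases before the start and 10 from it on, in GRCm38 and on the coding strand. The median member was listed in 6 libraries. Capitals mark GGAAG, the core of ETS sites, or CTTCC, the same core on the other strand.
Rplp0 (chr5:115559387-115559476, plus strand): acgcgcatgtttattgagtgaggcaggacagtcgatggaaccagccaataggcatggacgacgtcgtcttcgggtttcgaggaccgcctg
Rpl11 (chr4:136053384-136053473, minus strand): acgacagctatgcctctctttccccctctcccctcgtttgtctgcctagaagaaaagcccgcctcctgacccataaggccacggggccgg
Rps6 (chr4:86857358-86857447, minus strand): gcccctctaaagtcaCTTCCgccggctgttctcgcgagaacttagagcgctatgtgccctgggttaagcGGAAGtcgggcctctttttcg
Rpsa (chr9:120127686-120127775, plus strand): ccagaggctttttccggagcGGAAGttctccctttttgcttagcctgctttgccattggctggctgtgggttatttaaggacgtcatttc
Rpl37a (chr1:72711180-72711269, plus strand): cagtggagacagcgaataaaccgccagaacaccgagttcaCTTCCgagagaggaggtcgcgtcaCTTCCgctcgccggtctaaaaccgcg
Rpl6 (chr5:121204421-121204510, plus strand): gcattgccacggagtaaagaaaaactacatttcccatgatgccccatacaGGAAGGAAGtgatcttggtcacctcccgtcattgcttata
Rps4x (chrX:102189382-102189471, minus strand): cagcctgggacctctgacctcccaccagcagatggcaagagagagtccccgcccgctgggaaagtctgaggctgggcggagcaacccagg
Rpl10l (chr12:66284392-66284481, minus strand): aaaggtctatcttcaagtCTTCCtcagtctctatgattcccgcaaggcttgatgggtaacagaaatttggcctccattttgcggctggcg
Rpl39l (chr16:10170148-10170237, plus strand): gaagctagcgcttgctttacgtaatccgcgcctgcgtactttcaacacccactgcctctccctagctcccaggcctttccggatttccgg
The first 4 were listed in 6 to 9 libraries and the last 5 in 0 to 4. Within these 90 bases, both sets include windows with and without the capital core. The core may also lie outside them, and its relation to listing was not tested.

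The lists held from 30062 to 110724 peaks. Sequencing depth is not in the files, but the background that each library's peaks imply, in tags per window, ranged from 0.713 in vehicle replicate 1 to 1.419 in fulvestrant replicate 3. Between 7.35% and 46.4% of a library's peaks had a q-value of 0.05 or less. The 4 libraries numbered 1 had 22 to 36 peaks on the Y chromosome and the other 8 had 854 to 1148. Promoters of 10 fibroblast markers were listed at 80% to 100% in the libraries numbered 1, at 80% in vehicle replicate 3 and at 20% to 70% in the other 7. All protein-coding promoters were at 57.6% to 62.7%, 53.7% and 17.3% to 44.3% in the same sets. Over all 12 libraries, promoters of 7 muscle markers were listed at 0% to 57.1%, of 6 immune markers at 0% to 50% and of 5 epithelial markers at 0% to 60%. In number 1 alone these 3 ranges were 28.6% to 57.1%, 0% to 50% and 0% to 60%. The promoters of 4 endothelial markers ranged from 0% to 100%, with all 4 listed only in vehicle replicate 2, whose list was the longest.

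RP promoters were almost completely listed in 5 libraries and mostly missing from 7. Among vehicle libraries, replicate 1 listed 72 of 80 RP promoters (90.0%, against 57.6% of all protein-coding promoters), replicate 2 listed 33 (41.25%, against 44.3%) and replicate 3 listed 73 (91.25%, against 53.7%). With E2, the 3 libraries listed 74 (92.5%, against 62.6%), 9 (11.25%, against 25.5%) and 12 (15%, against 17.3%). With E2 plus fulvestrant they listed 74 (92.5%, against 60.2%), 15 (18.75%, against 20.1%) and 20 (25.0%, against 22.2%). With fulvestrant alone they listed 77 (96.25%, against 62.7%), 35 (43.75%, against 29.6%) and 9 (11.25%, against 19.5%). In 5 libraries these housekeeping promoters were thus listed less often than promoters at large. These libraries were vehicle replicate 2, E2 replicates 2 and 3, E2 plus fulvestrant replicate 2 and fulvestrant replicate 3. The gap to other promoters was only -3.04 points in vehicle replicate 2, -2.27 in E2 replicate 3 and -1.39 in E2 plus fulvestrant replicate 2. With only 1 start per gene searched, the order turned in these last-named libraries. Vehicle replicate 2 then listed 28.75% against 28.1% of all promoters, and E2 plus fulvestrant replicate 2 listed 18.75% against 11.05%. Fulvestrant replicate 3 listed 11.25% against 11.5%, and E2 replicate 2 stayed lower.

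**Figure D1:**
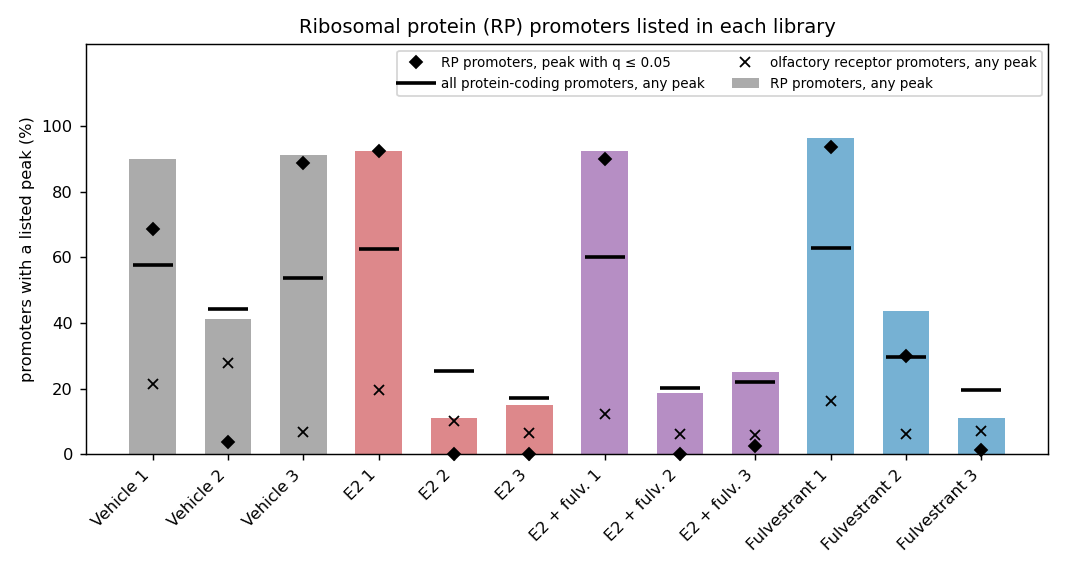
Share of RP promoters with a listed peak in each of the 12 libraries (bars, percent of 80 promoters, coloured by treatment), with the share holding a peak at q of 0.05 or less (diamonds), the share of all 21938 protein-coding promoters (horizontal lines) and of 1135 olfactory receptor promoters (crosses). Bars reach 90.0% or more in vehicle replicates 1 and 3 and in the other 3 libraries numbered 1, and lie between 11.25% and 43.75% elsewhere.

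With peaks at q of 0.05 or less the contrast was sharper. Vehicle libraries then listed 55, 3 and 71 RP promoters, where 32.2%, 9.39% and 43.2% of all promoters were listed. E2 libraries listed 74, 0 and 0 (48.8%, 1.86% and 1.27% of all promoters), and E2 plus fulvestrant libraries 72, 0 and 2 (47.6%, 1.24% and 1.98%). Fulvestrant libraries listed 75, 24 and 1 (50.6%, 13.5% and 3.21%). E2 replicate 1 therefore kept all of its 74 RP promoters at this threshold, and E2 replicates 2 and 3 kept none.

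To ask whether estradiol or its blockade changed the share of RP promoters listed, treatments were compared over libraries. The mean share was 74.2% ± 28.5 with vehicle, 39.6% ± 45.9 with E2, 45.4% ± 40.9 with E2 plus fulvestrant and 50.4% ± 42.9 with fulvestrant (SD, n = 3 each). For all promoters the means were 51.9%, 35.1%, 34.2% and 37.3% in the same order, likewise highest with vehicle. No difference in RP share exceeded the spread between libraries. E2 was 5.83 percentage points below E2 plus fulvestrant (exact permutation test, two-sided, p = 0.6, adjusted over 4 contrasts 0.7). E2 was 34.6 points below vehicle (exact permutation test, p = 0.4, adjusted 0.7), fulvestrant 23.75 points below (p = 0.7, adjusted 0.7) and E2 plus fulvestrant 28.75 points below (p = 0.4, adjusted 0.7), and these 3 differences share the vehicle libraries. With 3 libraries against 3, p cannot go below 0.10. A single exact permutation test over all 4 treatments, which can pass 0.05, gave p = 0.706 for a range of 34.6 points between treatment means.

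The sign of these differences was not stable. Within number 1, E2 and E2 plus fulvestrant both listed 74 RP promoters, a difference of 0 points, and E2, fulvestrant and E2 plus fulvestrant lay above vehicle by 2.50, 6.25 and 2.50 points. Within numbers 2 and 3 the same contrasts with vehicle were -53.1, -38.75 and -44.4 points, and that of E2 with E2 plus fulvestrant was -8.75 points. For fulvestrant, numbers 2 and 3 differed in sign. Fulvestrant replicate 2 listed 43.75% against 41.25% in vehicle replicate 2, and fulvestrant replicate 3 listed 11.25% against 91.25% in vehicle replicate 3. E2 lay above E2 plus fulvestrant, by 8.33, 6.46 and 17.7 points, when E2 replicate 2, E2 replicate 3 or E2 plus fulvestrant replicate 1 was left out. Leaving out 1 library kept the contrasts with vehicle negative. Some of them moved by more than 1.5 times, as given next, and others by less. E2 minus vehicle was -61.0 points without E2 replicate 1, -20.4 without E2 replicate 2 and -22.3 without E2 replicate 3. Fulvestrant minus vehicle was -46.7 points without fulvestrant replicate 1, -4.17 without fulvestrant replicate 3, -40.2 without vehicle replicate 2, and -15.8 and -15.2 without vehicle replicates 1 and 3. E2 plus fulvestrant minus vehicle was -52.3, -15.4 and -18.5 points without its own replicates 1, 2 and 3, and -45.2 without vehicle replicate 2. With the recovered background as a covariate, E2 minus E2 plus fulvestrant was -17.5 points (exact permutation test, p = 0.7). The contrasts with vehicle were then -74.0 points for E2 (exact permutation test, p = 0.1), -15.0 for fulvestrant (p = 0.9) and -45.4 for E2 plus fulvestrant (p = 0.3). The smallest p possible with 3 libraries against 3 is 0.1, so these fits cannot decide whether treatments differ at equal depth.

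Counted promoter by promoter, 13 RP promoters were listed in more E2 than E2 plus fulvestrant libraries, 24 in fewer and 43 in the same number, whereas 24.8%, 22.6% and 52.6% of all promoters fell into these classes. Against vehicle, 62 RP promoters were listed in fewer E2 libraries and 1 in more (77.5% and 1.25%, against 50.1% and 12.8% of all promoters). For fulvestrant these numbers were 47 and 5 (58.75% and 6.25%, against 45.2% and 12.5%), and for E2 plus fulvestrant 59 and 4 (73.75% and 5%, against 50.4% and 11.2%). Promoters of 1 list share its depth and quality, so these counts are not independent of each other.

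No RP promoter was listed in all 3 libraries of one treatment and in none of another, in either direction of the 4 contrasts. Over all promoters the percentage was 0.26 for E2 without E2 plus fulvestrant and 0.228 for the converse. It was 0.15 for E2 without vehicle and 0.574 for the converse, 0.0593 for fulvestrant without vehicle and 0.579 for the converse, and 0.15 for E2 plus fulvestrant without vehicle and 0.679 for the converse. The count of 0 depended on single libraries. Summed over the 8 directions, it was 24 without E2 replicate 1 (3.75% of member and direction pairs, against 1.87% over all promoters). It was 15 without fulvestrant replicate 1 (2.34%, against 1.32%) and 13 without E2 plus fulvestrant replicate 1 (2.03%, against 1.86%). It was 1 without vehicle replicate 2 or vehicle replicate 3 (0.156%, against 0.668% and 1.14%) and 0 without any other library, vehicle replicate 1 included.

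The RP share differed by replicate number. The mean share was 92.8% ± 2.58 in number 1, 28.75% ± 16.2 in number 2 and 35.6% ± 37.5 in number 3 (SD, n = 4 each), and these means differed beyond the spread between libraries (range 64.1 points, exact permutation test, p = 0.0229). All promoters were also highest in number 1, with means of 60.8%, 29.9% and 28.2% in numbers 1 to 3, which was not tested. By RP share, number 1 libraries did not overlap number 2. In number 3, vehicle replicate 3 at 91.25% lay within the range of number 1, while the other 3 libraries lay at 11.25% to 25.0%. Leaving out vehicle replicate 3 raised the range to 75.7 points (exact permutation test, p = 0.00208), and leaving out any other library kept it between 58.2 and 69.1 points. The Y chromosome peaks, 22 to 36 in number 1 and 854 to 1148 in the others, with 936 in vehicle replicate 3, moved with the number too, and their part in the difference was not tested. The study's methods describe male mice, and the labels say neither the sex of the cells nor what the number stands for, so animal, sex, culture and preparation cannot be told apart.

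The gap to other promoters followed the same division. Over 12 libraries the share of RP promoters exceeded that of the 21858 other protein-coding promoters by 12.8 points on average (exact sign-flip permutation test, two-sided, p = 0.0444), and it was higher in 7 of the 12 libraries. In number 1 the excess was 30.02 to 33.6 points in all 4 libraries (mean 32.1 ± 1.52, SD), and in vehicle replicate 3 it was 37.6 points. Fulvestrant replicate 2 had 14.2 points and E2 plus fulvestrant replicate 3 had 2.79 points. The remaining 5 libraries lay between -14.3 points in E2 replicate 2 and -1.39 points in E2 plus fulvestrant replicate 2. The mean excess was no longer past 0.05 when vehicle replicate 1 or 3, E2 replicate 1, E2 plus fulvestrant replicate 1, or fulvestrant replicate 1 or 2 was left out, with values from 10.6 to 12.7 points and exact permutation p from 0.0596 to 0.0889.

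RP promoters moved with other genes that growing cells keep on, and promoters at large moved in the same direction. Cytosolic ribosomes are built with assembly factors, and their products are turned over by the proteasome, so 4 further lists were read in the same way. Mitochondrial ribosomal proteins (78 genes) were listed at 78.2% to 94.9% in number 1, at 89.7% in vehicle replicate 3 and at 14.1% to 37.2% in the other 7 libraries. Translation factors (68 genes) were at 82.4% to 95.6%, 92.6% and 22.1% to 57.4% in the same sets, ribosome assembly factors (32 genes) at 90.6% to 100%, 93.8% and 18.75% to 46.9%, and proteasome subunits (40 genes) at 82.5% to 92.5%, 90.0% and 12.5% to 45%. All 4 lists were lower in the same 7 libraries as the RP promoters. So were all protein-coding promoters, at 57.6% to 62.7% in number 1, 53.7% in vehicle replicate 3 and 17.3% to 44.3% in the other 7. The drop was thus not particular to these lists. Translation factors lay above the RP share in each of the 7 sparser libraries, by the widest margin in E2 replicate 2, at 26.5% against 11.25%. All promoters were at 25.5% in that library, so translation factors lay near the share at large there and RP promoters below it. These shares were not tested against each other.

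Keratins and olfactory receptors, not known as fibroblast genes, were read as a contrast. Keratin promoters (53 genes) were listed at 11.3% to 39.6%, and olfactory receptor promoters (1135 genes), which mark peaks outside active chromatin, at 5.90% to 27.8%. Both were also highest on average in number 1, at 32.5%, 20.8% and 15.6% for keratins and 17.4%, 12.7% and 6.67% for olfactory receptors in numbers 1 to 3, which was not tested. The olfactory share was highest in vehicle replicate 2, at 27.8%, where the RP share was 41.25%. In vehicle replicate 3 it was 6.96%, with an RP share of 91.25%. In E2 replicate 2 the shares were 10.3% for olfactory receptors and 11.25% for RP genes, a difference of under 1 promoter of the 80.

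**Figure D2:**
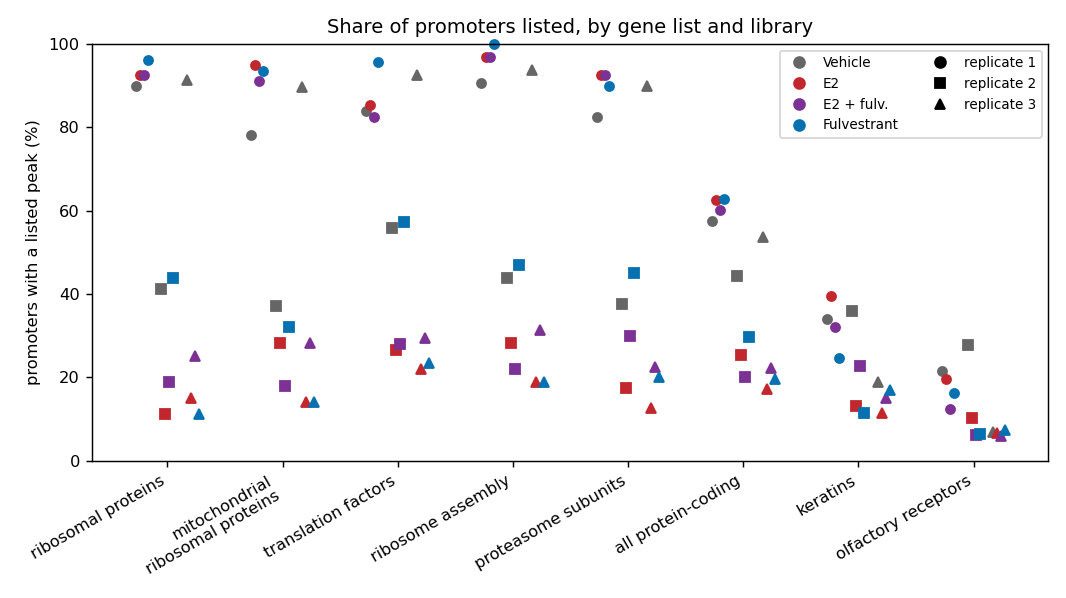
Share of promoters listed (percent) for 8 gene lists, each symbol 1 library, coloured by treatment and shaped by replicate number. In the 5 lists of housekeeping genes, circles (number 1) and the vehicle triangle (vehicle replicate 3) lie at 78.2% or above and all other symbols at 57.4% or below, while olfactory receptors stay at or below 27.8%. For all protein-coding promoters, the circles and the vehicle triangle lie at 53.7% to 62.7% and the other symbols at 17.3% to 44.3%.

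The height of the listed peaks was then read in tags. A tag is a read end extended around the transposase cut, and the tags piled up at a summit were recovered from fold enrichment and p-value for all 503 of the 503 listed pairs of an RP promoter and a library. The median RP summit held 18 tags in E2 replicate 1, 18 in E2 plus fulvestrant replicate 1, 20 in fulvestrant replicate 1 and 18 in vehicle replicate 3. In vehicle replicate 1, the shallowest library, it held 9 tags. In fulvestrant replicate 2 it held 8, and in the other 6 libraries 5 to 6.5, lowest in vehicle replicate 2 and E2 plus fulvestrant replicate 2. Height and share thus did not follow one order. At background level 3 to 5 tags sufficed for a peak to be listed, so the RP peaks of those 6 libraries lay close to the smallest pileup that could be listed.

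With unlisted promoters set to a fold enrichment of 1, the median fold over the 80 promoters was 4.88 in vehicle replicate 1, 6.94 in vehicle replicate 3, 6.21 in E2 replicate 1, 6.605 in E2 plus fulvestrant replicate 1 and 7.36 in fulvestrant replicate 1. It was 1 in each of the other 7 libraries, since most promoters were unlisted there. The difference between E2 and E2 plus fulvestrant was -0.03 on the log2 scale (exact permutation test, two-sided, p = 1). Between replicate numbers the log2 means spanned 2.63 (exact permutation test, p = 0.0242), and 2.06 (exact permutation test, p = 0.152) when only peaks with a −log10 q-value of at least 5 were kept. Since the median is 1 wherever most members are unlisted, these values restate the shares and are not separate evidence from height.

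In 6 libraries nearly all RP peaks sat on the start sites. In the 4 libraries numbered 1, 94.6% to 97.4% of the listed RP promoters had their strongest summit within 500 bp of a start, and this was 95.9% in vehicle replicate 3 and 97.1% in fulvestrant replicate 2. In vehicle replicate 1 the median summit lay at -39 bp, in vehicle replicate 3 at -34 bp and in E2 replicate 1 at -23 bp, just upstream of transcription. Among other listed promoters the share within 500 bp was 68.8% to 76.3% in number 1, 78.2% in vehicle replicate 3 and 61.0% in fulvestrant replicate 2. In 3 of the sparse lists the RP share lay near or below that of other listed promoters. There, 8 of 33 lay within 500 bp in vehicle replicate 2 (24.2%, against 26.2% of other listed promoters), 2 of 9 in E2 replicate 2 (22.2%, against 29.1%) and 3 of 12 in E2 replicate 3 (25.0%, against 24.7%). In E2 plus fulvestrant replicates 2 and 3 these numbers were 7 of 15 and 10 of 20 (46.7% and 50%, against 24.8% and 33.5%), and in fulvestrant replicate 3 they were 7 of 9 (77.8%, against 35.7%), all on few promoters.

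With the window narrowed to 500 bp, vehicle replicate 2 fell to 11.25% of RP promoters, against 14.7% of other promoters. E2 replicates 2 and 3 fell to 2.5% and 5%, and E2 plus fulvestrant replicates 2 and 3 to 10.0% and 13.75%. Fulvestrant replicate 2 kept 42.5% and fulvestrant replicate 3 kept 8.75%, while the 4 libraries numbered 1 and vehicle replicate 3 kept 88.75% to 95.0%. Other promoters were listed at 4.79% in E2 replicate 3 and 5.69% in E2 plus fulvestrant replicate 2. They were at 18.9% and 7.60% in fulvestrant replicates 2 and 3, at 44.3% in vehicle replicate 3 and at 42.3% to 50.6% in number 1.

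**Figure D3:**
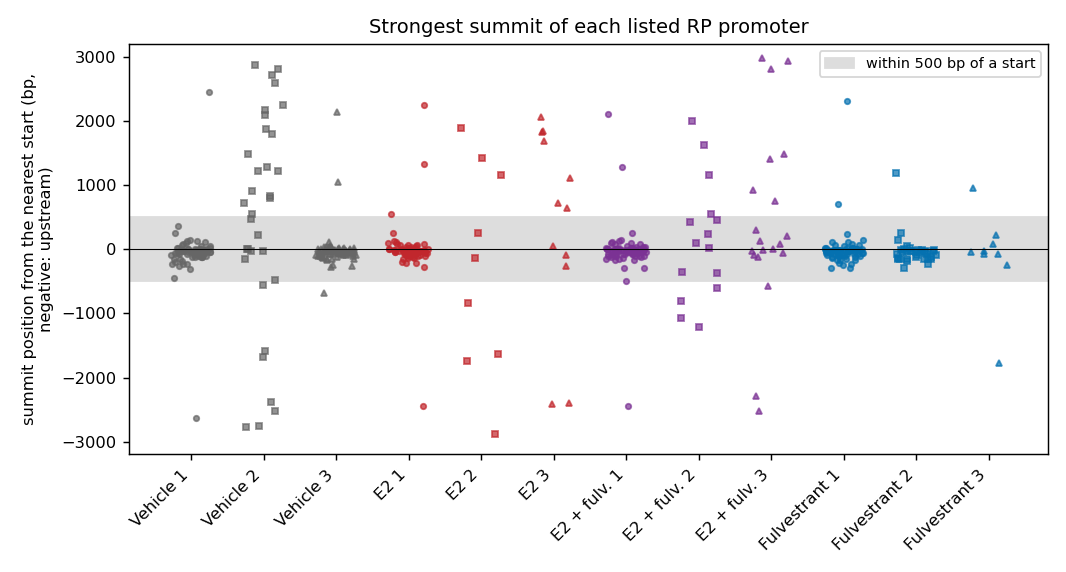
Distance in bp from the strongest summit of each listed RP promoter to the nearest annotated start (negative is upstream), 1 symbol per promoter, by library and coloured by treatment, with the 500 bp zone shaded and sideways scatter added for legibility. In the libraries numbered 1, vehicle replicate 3 and fulvestrant replicate 2, 94.6% or more of the points lie in the shaded zone, whereas in vehicle replicate 2 only 8 of 33 do.

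Of the 80 promoters, 79 were listed in at least 1 library (88.2% of all promoters) and none in all 12 (0.757% of all promoters). In all 4 libraries numbered 1, 69 were listed (42.6% of all promoters), and 54 of the 80 were listed there at q of 0.05 or less (28.9% of all promoters). In number 2, 18 members (22.5%) were listed in no library, against 32.8% of all promoters, and in number 3 this held for 6 (7.5%, against 33.6%). No member was listed in all 4 libraries of number 2 (3.48% of all promoters) or of number 3 (2.8%). The median member was listed in 6 libraries, against 5 for all promoters. RP genes have more annotated starts, with a median of 6 against 3, which widens the searched window, and 26 of the 80 had a start of another protein-coding gene in it. With 1 start per gene the RP share was 8.75% to 96.25%, and the replicate numbers still differed (range 67.5 points, exact permutation test, p = 0.0215). The excess over other promoters was 18.6 points in this setting (exact sign-flip permutation test, p = 0.00684), and 20.5 points with all starts and a window of 500 bp (p = 0.0132, same exact test).

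In 9 libraries, the highest number for any member, 7 members were listed, among them Rpl11, Rpl21, Rplp0, Rps19, Rps25 and Rps29. Rps29 (ENSMUSG00000034892.8, chromosome 12), a small protein of the 40S head, had the tallest peaks of the family, with 33, 4 and 72 tags in vehicle replicates 1 to 3, 88 in E2 replicate 1, 86 and 14 in E2 plus fulvestrant replicates 1 and 3, and 100, 31 and 8 in fulvestrant replicates 1 to 3. All 9 of its summits lay between -110 and -35 bp from a start.

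Rpl11 and Rpl5 are the large subunit proteins that, when not built into ribosomes, bind Mdm2 with the 5S RNA and stabilise p53. Rpl11 (chromosome 4) held 8 and 18 tags in vehicle replicates 1 and 3, 10 and 5 in E2 replicates 1 and 2, 7, 6 and 6 with E2 plus fulvestrant, and 19 and 6 in fulvestrant replicates 1 and 2. Its summits in E2 replicate 2 and E2 plus fulvestrant replicate 3 lay 1421 and 1403 bp inside the gene. Rpl5 (chromosome 5) was listed in 7 libraries, with 8, 5 and 11 tags with vehicle, 18 in E2 replicate 1, 11 and 5 in E2 plus fulvestrant replicates 1 and 2, and 19 in fulvestrant replicate 1. For both genes the libraries with 8 or more tags were those numbered 1 and vehicle replicate 3, except that Rpl11 had 7 tags in E2 plus fulvestrant replicate 1.

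The P stalk, which recruits translation factors to the ribosome, is made of Rplp0, Rplp1 and Rplp2. Rplp0 (chromosome 5) held 13, 5 and 27 tags with vehicle, 31 and 5 in E2 replicates 1 and 3, 33 and 7 in E2 plus fulvestrant replicates 1 and 3, and 26 and 8 in fulvestrant replicates 1 and 2. Rplp1 (chromosome 9) was listed in 8 libraries, with 9 to 28 tags in number 1, 13 in vehicle replicate 3 and 5 to 7 in the other 3. Rplp2 (chromosome 7) was listed in 6, with 7 to 19 tags in number 1, 11 in vehicle replicate 3 and 5 in vehicle replicate 2. In E2 replicate 2 none of these 3 stalk promoters was listed.

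Among other members with a known special role, the small subunit protein Rpsa, also called the laminin receptor, was listed in 7 libraries with 6 to 29 tags. Rps6, the substrate of S6 kinase, was listed in 6 libraries, with 16 to 21 tags in vehicle replicate 3, E2 replicate 1, E2 plus fulvestrant replicate 1 and fulvestrant replicate 1, 8 tags in vehicle replicate 1 and 6 in E2 replicate 2. Rps27a, which is made as a fusion with ubiquitin, was listed in the 4 libraries numbered 1 and vehicle replicate 3 and nowhere else, with 4 tags in vehicle replicate 1 and 9 to 18 in the other 4. Rps19 and Rpl35a are genes whose loss of 1 copy causes Diamond-Blackfan anemia in people. Rps19 held 18, 4 and 52 tags with vehicle, 44 and 7 in E2 replicates 1 and 2, 56 and 8 in E2 plus fulvestrant replicates 1 and 3, and 57 and 10 in fulvestrant replicates 1 and 2. Rpl35a was lower, with 5, 4 and 10 tags with vehicle and 11, 9 and 12 in the other libraries numbered 1, and was not listed elsewhere.

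The members listed least often, up to 8 of them, were Rpl39l in 0 libraries, Rps4x in 1, Rpl10l, Rpl3l and Rpl8 in 2, Rpl37a in 3, and Rpl36a and Rpl6 in 4. Of these, 3 are tissue-restricted paralogs. Rpl39l, used in testis, had no listed peak in any library. Rpl10l, a testis paralog of the X-linked Rpl10, was listed with 4 tags in vehicle replicate 1 and 6 in fulvestrant replicate 1. Rpl3l, the paralog of striated muscle, was listed with 5 tags in vehicle replicate 2 and 7 in E2 plus fulvestrant replicate 3, with summits 546 and 2804 bp from a start. None of the 3 paralogs reached q of 0.05 in any library. The ubiquitous parents Rpl3 and Rpl10 were listed in 8 and 6 libraries. Rps27l, a paralog of Rps27 that p53 induces, was unlike the tissue-restricted ones, with 8 and 32 tags in vehicle replicates 1 and 3, 27 in E2 replicate 1, 28 in E2 plus fulvestrant replicate 1, and 32 and 6 in fulvestrant replicates 1 and 2.

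The other 5 belong to every ribosome. Rps4x (chromosome X), a small subunit protein, was listed in fulvestrant replicate 1 only, with 7 tags, a fold enrichment of 3.61 and a summit 6 bp from a start. Rpl8 (chromosome 15), near the peptidyl transferase centre, had 8 tags and a fold of 3.46 in fulvestrant replicate 1, and 4 tags in vehicle replicate 2 with a summit 1798 bp from a start. Rpl37a (chromosome 1) had 8 or 9 tags in vehicle replicate 3, E2 replicate 1 and E2 plus fulvestrant replicate 1. Rpl36a (chromosome X) had 8 to 13 tags in vehicle replicate 3 and in the libraries numbered 1 other than vehicle. Rpl6 (chromosome 5) had 4 to 7 tags in vehicle replicates 1 and 3, E2 replicate 1 and fulvestrant replicate 1. Apart from 1 Rpl8 peak in vehicle replicate 2, these 5 members were listed only in the libraries where the rest of the family was listed too, and there below or at 13 tags, against medians of 9 to 20.

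**Figure D4:**
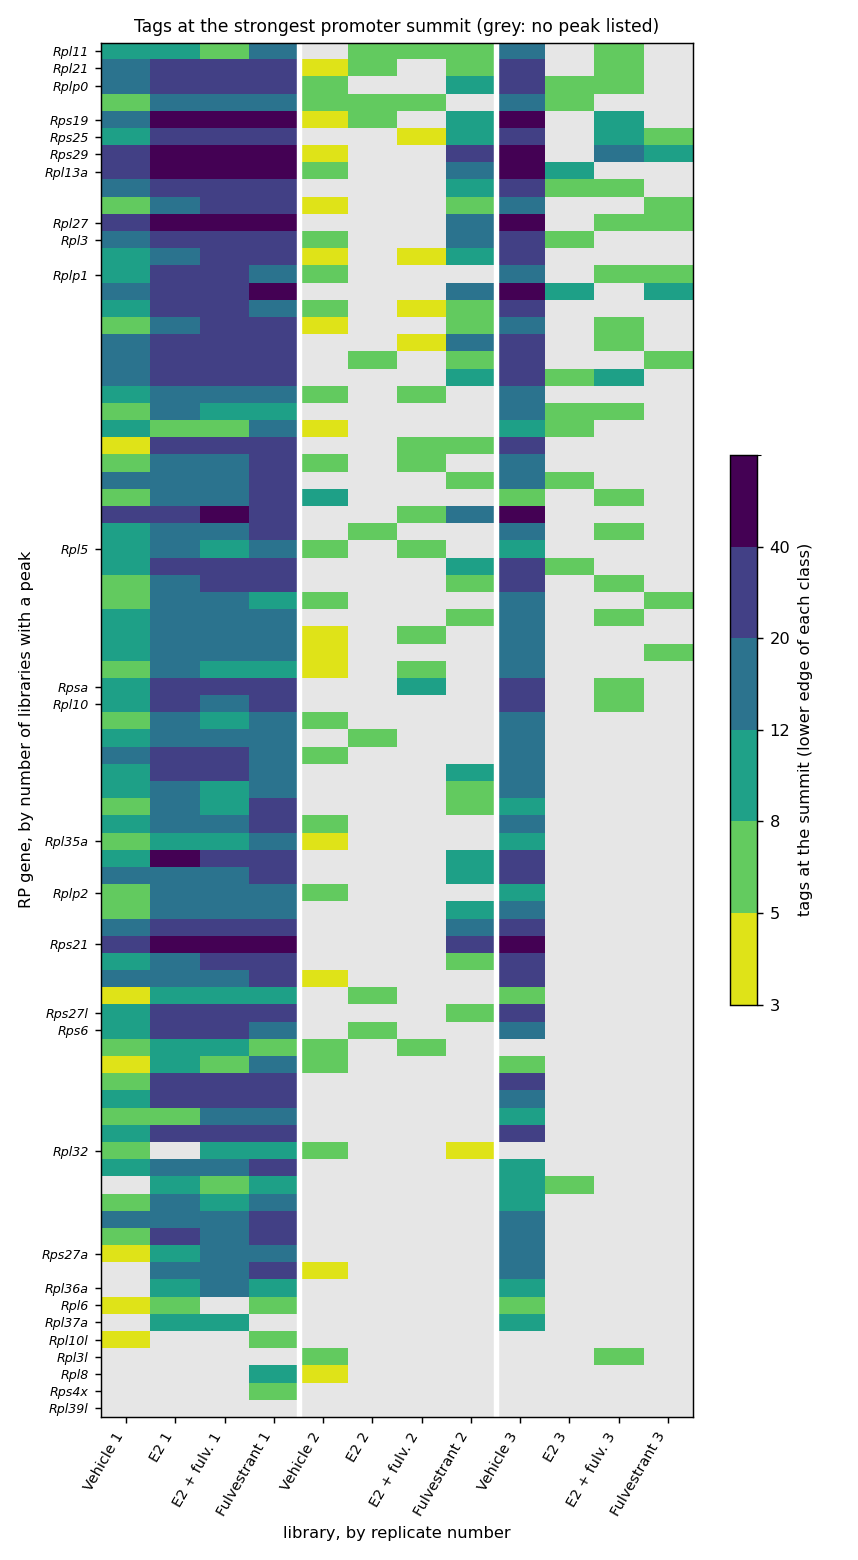
Tags at the strongest summit of each of the 80 RP promoters (rows, ordered by the number of libraries with a listed peak and labelled for the members described by name) in the 12 libraries (columns, by replicate number), in colour classes, with grey where no peak was listed. The 4 columns of number 1 and vehicle replicate 3 are filled in most rows, and the other 7 are mostly grey.

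Chosen after their values were seen, the tallest RP peaks beside Rps29 were those of Rpl13a, Rps21, Rpl27 and Rps19, with 70, 61, 58 and 57 tags in fulvestrant replicate 1. Rpl13a shares its window with starts of other protein-coding genes, so its peaks cannot be assigned to it alone. Rps21 and Rpl27 stand alone in theirs. Also chosen in this way, Rpl32 was listed with 7, 8 and 9 tags in 3 libraries numbered 1 but was missing from E2 replicate 1 and vehicle replicate 3.

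Small subunit promoters had the higher share in 11 of 12 libraries and large subunit promoters in 1, a difference that was not tested. In number 1, large subunit promoters were listed at 87.8% to 93.9% and small subunit promoters at 93.5% to 100%. In vehicle replicate 3 the shares were 89.8% and 93.5%. In number 2 the mean share was 25.5% ± 16.7 for the large and 33.9% ± 15.9 for the small subunit (SD, n = 4). E2 replicate 3 was the exception, with 18.4% of large and 9.68% of small subunit promoters listed. All 31 small subunit promoters were listed in fulvestrant replicate 1. The 3 tissue-restricted paralogs all count with the large subunit.

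Depth and list length were set beside the RP share. The deepest library by recovered background, fulvestrant replicate 3 at 1.419 tags per window, listed 9 RP promoters, and the shallowest, vehicle replicate 1 at 0.713, listed 72. The libraries numbered 1 had 60924 to 78822 peaks, more than the 30062 to 48738 of 6 of the 7 sparser libraries. Vehicle replicates 2 and 3 departed from this order, with 110724 peaks and 33 RP promoters listed, and 44358 peaks and 73. The part of depth and list length in the RP share was not tested. The share of peaks at q of 0.05 or less was 38.8% to 46.4% in vehicle replicate 3 and in the libraries numbered 1 other than vehicle. In vehicle replicate 1 it was 17.9%, little above the 16.2% of vehicle replicate 2 and of fulvestrant replicate 3, yet its RP share was 90.0% against 41.25% and 11.25%. Because the RP shares form separate sets, at 90.0% and above and at 43.75% and below, no correlation over the 12 libraries was computed.

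**Figure D5:**
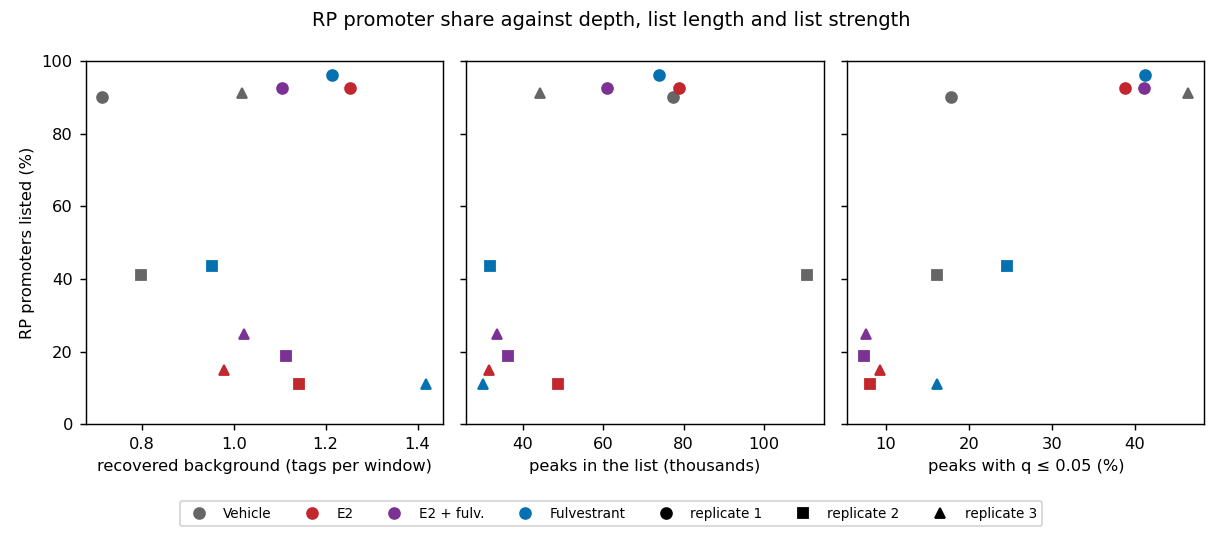
Share of RP promoters listed (percent) against the recovered background in tags per window, the number of peaks (axis in units of 1000) and the percentage of peaks at q of 0.05 or less, 1 symbol per library, coloured by treatment and shaped by replicate number. The deepest library, at 1.419 tags per window, has an RP share of 11.25%, and the shallowest, at 0.713, has 90.0%.

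RefSeq windows of 300 bases, from 250 before to 50 after the start in GRCm38.p6, matched 60 of the 80 members and 16505 protein-coding genes. The 20 members without a window included Rpl3, Rpl7, Rpl8, Rpl17, Rpl21, Rpl23a, Rpl29, Rpl30, Rpl32, Rpl36, Rplp1, Rps14, Rps20, Rps27a and Rps29. On either strand, GGAAG (the ETS core) was found in 91.7% of RP windows and 72.1% of all windows, and GGGCGG (SP1 and KLF factors) in 58.3% and 48.5%. AAGATGG (YY1) was found in 13.3% and 6.41%, CACGTG (the E-box of Myc) in 8.33% and 8.08%, GCGCATGC (NRF1) in 5% and 3.79%, and TATAAA in 8.33% and 12.9%. A run of at least 6 pyrimidines at the start was present in 46.7% of RP windows and 20.7% of all. These matches are letters in a window and not measured binding.

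RP windows had the same median GC content as all windows, 57%, but more CpG dinucleotides, with a median of 21 against 14. Of the windows printed above, Rps6 held a run of 10 pyrimidines at its start and GGAAG on both strands, and Rps4x held at most 3 pyrimidines in a row at its start and no GGAAG on either strand. RP genes have many processed copies in the genome, which carry the transcript but not the sequence upstream of the start. In 54 of the 60 members every 32-mer upstream of the start occurred once in GRCm38. Rpl37a had the lowest share, 63.5% single-copy 32-mers, and Rpl5 had 84.0%. Of the seldom listed members with a window, Rpl37a was thus the one whose upstream sequence was partly repeated. None of its 32-mers had more than 2 copies, and the part of this in its 3 listed libraries was not tested.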

How the data were processed

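ATAC-seq was done on 12 libraries, 3 for each of 4 treatments, and groups and replicate numbers came from the labels. Per the labels and the study's methods, the authors trimmed reads (Trimmomatic 0.39), aligned them to mm10 (Bowtie2, for which the labels and the methods give different versions), removed duplicates (Picard 2.21.4) and called peaks per library with MACS2 2.2.71, shifting read ends to centre tags on the transposase cut. Each deposited list gives per peak a score, a fold enrichment (a ratio of pileup to local background, each with 1 added), a −log10 p-value and a −log10 q-value, all made by the authors' caller. The smallest −log10 p-value in the deposited lists was 2.01, so the lists reach to p of about 0.01.

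A promoter was listed if a summit lay within 3000 bp of any of 93513 starts of protein-coding genes, mitochondrial genes excepted. The peak with the highest −log10 p-value gave the tags and the summit position of a promoter. The fold enrichment of a promoter was the highest of any peak in the window. Fold enrichment and p-value fix the whole number of tags at a summit (tolerance 0.01 on the −log10 scale) and the library background, which is proportional to depth. Read totals and counts were not analysed here, so the study's count model was not fitted, depth is relative, and absence from a list does not mean closed chromatin. Shares were compared by exact permutation tests over libraries (Python 3.11.15, SciPy 1.17.1), adjusted by Benjamini-Hochberg over 4 contrasts. Calls and tests were tested on simulated lists with planted summits.

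Members and lists were chosen with earlier results of these data known. Named members were those listed in fewest libraries (up to 8), the paralogs and those with a role fixed in advance. Parts of the naming rule for members listed in all 12 libraries or separating treatments named none. A few members are counted but not reported here by name. Correlations across libraries, which had been planned, were not computed because the shares fell into separate sets.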

Additional observations from a re-analysis of the deposited data

Results flagged for a closer look

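Within a replicate number, single libraries stood apart from the other 3 by Dixon's criterion, which flags about 1 in 20 groups, and 12 groups were examined. At q of 0.05 or less, vehicle replicate 1 listed 68.75% of RP promoters, below the other libraries numbered 1 (ratio 0.850). Fulvestrant replicate 2 listed 30%, above the other libraries numbered 2 (ratio 0.875), and vehicle replicate 3 listed 88.75%, above the others numbered 3 (ratio 0.972). The log2 median fold enrichment of vehicle replicate 3 was 2.80, with 0 in the other 3 libraries (ratio 1), where it was fixed at 0 because most members were unlisted and set to a fold of 1.

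The contrasts with vehicle went in opposite directions between replicate numbers, with 1 library per treatment and number. E2 minus vehicle was 2.50 percentage points of RP promoters listed in number 1, -30 in number 2 and -76.25 in number 3. E2 plus fulvestrant minus vehicle was 2.50, -22.5 and -66.25 points. This difference between numbers was not tested, and both contrasts share the vehicle libraries.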

How the results depend on the processing

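Of 204 recomputed values, 177 kept their direction and their side of 0.05. Part of this tally was fixed beforehand, so it does not measure stability. Pairwise contrasts of treatments could not pass 0.05 in any setting, ranges cannot turn negative, and counts of separating promoters were not tested. A change in size alone was not counted either. Fulvestrant minus vehicle counted as kept when it went from -23.75 to -4.17 points without fulvestrant replicate 3. The difference of E2 from E2 plus fulvestrant in RP share was 0 points with peaks at q of 0.05 or less and within number 1, and turned to 0.417 points with the 10000 strongest peaks of each list. Leaving out 1 library moved it between -32.3 and 17.7 points, and the log2 height difference between -0.91 and 0.88. That height difference was 0 within numbers 2 and 3. Within number 1, E2, fulvestrant and E2 plus fulvestrant exceeded vehicle by 2.50, 6.25 and 2.50 points. The excess of RP over other promoters ranged from 10.6 to 15.3 points with 1 library left out. It was 32.1 points within number 1 (exact permutation test, p = 0.125, the smallest possible with 4 libraries) and 3.17 within numbers 2 and 3 (exact permutation test, p = 0.711). The height range over numbers was 2.06 with a −log10 q-value of at least 5 (exact permutation test, p = 0.152). Promoters separating treatments numbered 0 to 24 with 1 library left out. The cause of these shifts was not tested, except that fewer libraries per group make separation easier by construction.

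The range over replicate numbers passed 0.05 under every alternative tried, from 58.2 to 77.8 points. An alternative chosen after seeing the data, 1 start per gene with q of 0.05 or less, gave 76.6 points (exact permutation test, p = 0.0187) and an excess over other promoters of 19.9 points. With the replicate block, the difference of E2 from E2 plus fulvestrant stayed at -5.83 points (exact sign-flip permutation test, p = 0.5). With 3 blocks no pairwise contrast could pass 0.05. The blocked range over the 4 treatments, 34.6 points, which could, gave p = 0.476 (exact permutation test within numbers). Pairing was taken to need a correlation above 0.1 between the deviations from treatment means of every same-number pair. This held for 12 of 18 pairs (r from -0.494 to 0.712), all those of number 1 included, so the block was not used in the main comparison, although 8 of 12 libraries correlated best with their own number. Relative depth is known only from the peaks, and tags near the listing limit of 3 to 5 do not separate weak from absent peaks.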
